A study of Zea mays with 137 samples.

Results

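The genes of the long arm of maize chromosome 3 (3L) were followed across plants with 1, 2, 3 or 4 copies of the arm. The set was drawn from the genes of chromosome 3 that start at or beyond the point where the varied segment was taken to begin. Its genes had a mean of at least 1 FPKM (fragments per kilobase of transcript, scaled to the fragments mapped) over the 9 diploid control groups. The set left out 1 photosystem gene. It held 1454 of the 41448 genes of the tables. The segment held 3109 genes at any level, and 1654 of them were below 1 FPKM, including 426 with 0 in every group. The first member starts at 89.66 Mb and the last at 241.13 Mb in the W22 coordinates of the files, and 1160 of the members start beyond 150 Mb.

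When a chromosome arm is gained or lost, its genes are varied in *cis*, while the genes elsewhere can respond only in *trans*. Expression in proportion to the number of copies is a gene dosage effect, and expression held at the diploid level is dosage compensation. In maize the dosage of an arm can be changed with a B-A translocation, in which the arm is joined to the centromere of a supernumerary B chromosome that often fails to separate at the second pollen mitosis, so that sperm carry extra copies of the arm or none.

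RNA was sequenced from leaves of 45-d-old W22 plants in which 2 arms were varied together by B-A translocations, TB-3La for 3L. The plants came from crosses of translocation males to an *r1-r* W22 female, and the controls were diploid plants segregating in the same families. Of 137 samples, 136 were assigned to 33 combinations of 9 pairs of arms and their controls. The arm 3L was varied in 3 pairs. The pair with 1L had 4 plants of trisomy 1L+monosomy 3L, 4 of double trisomy 1L+3L and 4 controls, all of which were euploid plants that carried a balanced translocation. The pair with 4L had 3 plants of double monosomy, 2 of monosomy 3L+trisomy 4L, 4 of trisomy 3L+monosomy 4L, 4 of double trisomy and 3 controls. The pair with 5L had 3 plants of double monosomy, 4 of trisomy 3L+monosomy 5L, 5 of double trisomy, 1 of tetrasomy 3L+trisomy 5L and 4 controls. The other 23 combinations had 2 copies of 3L.

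The tables hold 1 mean per group, so the spread between plants and the depth of each library are unknown, and the plants counted here are those listed in the samples. In these data 3L was never varied without a second arm. The leaf samples differed in ways that cannot be told apart from the combination: those of monosomy 3L+trisomy 4L came from lower leaf positions, those of double monosomy 3L+4L from higher ones, those of double monosomy 3L+5L were whole leaf with the rib, those of trisomy 3L+monosomy 5L were taken centrally without it, and mid-rib was noted for 1 plant of trisomy 1L+monosomy 3L. The karyotype listed for 1 plant of double trisomy 3L+5L names 2 copies of 3L. The photosystem gene left out of the set, Zm00004b018833, which encodes the W protein of the photosystem II reaction centre, stood at 601 to 1465 FPKM in the 9 controls and ranked between 40 and 89 among the genes of chromosomes 1 to 10. The summed FPKM of a group lay between 562885 and 642198.

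The members were expressed at a median of 9.79 FPKM in the controls, from 1.00 to 2917 FPKM. Levels of at least 10 FPKM were reached by 713 genes and at least 100 FPKM by 83. The 6694 genes of chromosomes 2, 7, 8 and 10 with at least 1 FPKM, none of which were varied in any combination, served as *trans* genes for comparison. Their median level was 10.2 FPKM.

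Expression ratios of each combination to its own controls showed that the 3L genes followed the copy number, with medians between the diploid level and the dosage value. A ratio of 0.5, 1.5 or 2 is taken as the gene dosage effect for 1, 3 or 4 copies. FPKM is scaled to all fragments mapped, including those of the arm, so a change of the arm shifts every ratio. The ratios here were not corrected for this. With 1 copy, the median ratio was 0.511 (interquartile range 0.388 to 0.655) in trisomy 1L+monosomy 3L. It was 0.534 (0.411 to 0.709) in double monosomy 3L+4L and 0.530 (0.371 to 0.710) in monosomy 3L+trisomy 4L. Double monosomy 3L+5L had 0.526 (0.416 to 0.648). The 4 medians with 1 copy thus spanned 0.511 to 0.534, all on the side of 0.5 toward the diploid level.

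With 3 copies, the median ratio was 1.37 (1.14 to 1.70) in double trisomy 1L+3L and 1.38 (1.15 to 1.65) in double trisomy 3L+4L. It was 1.45 (1.24 to 1.77) in trisomy 3L+monosomy 4L. In the pair 3L+5L it was 1.36 (1.07 to 1.70) with monosomy 5L and 1.44 (1.24 to 1.62) with trisomy 5L. The plant with 4 copies had a median ratio of 1.80 (1.37 to 2.32). All 6 medians with a gain were below the dosage value, and the interquartile ranges of the 1-copy, 3-copy and 4-copy groups of 3L+5L overlapped only between 3 and 4 copies.

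**Figure D1:**
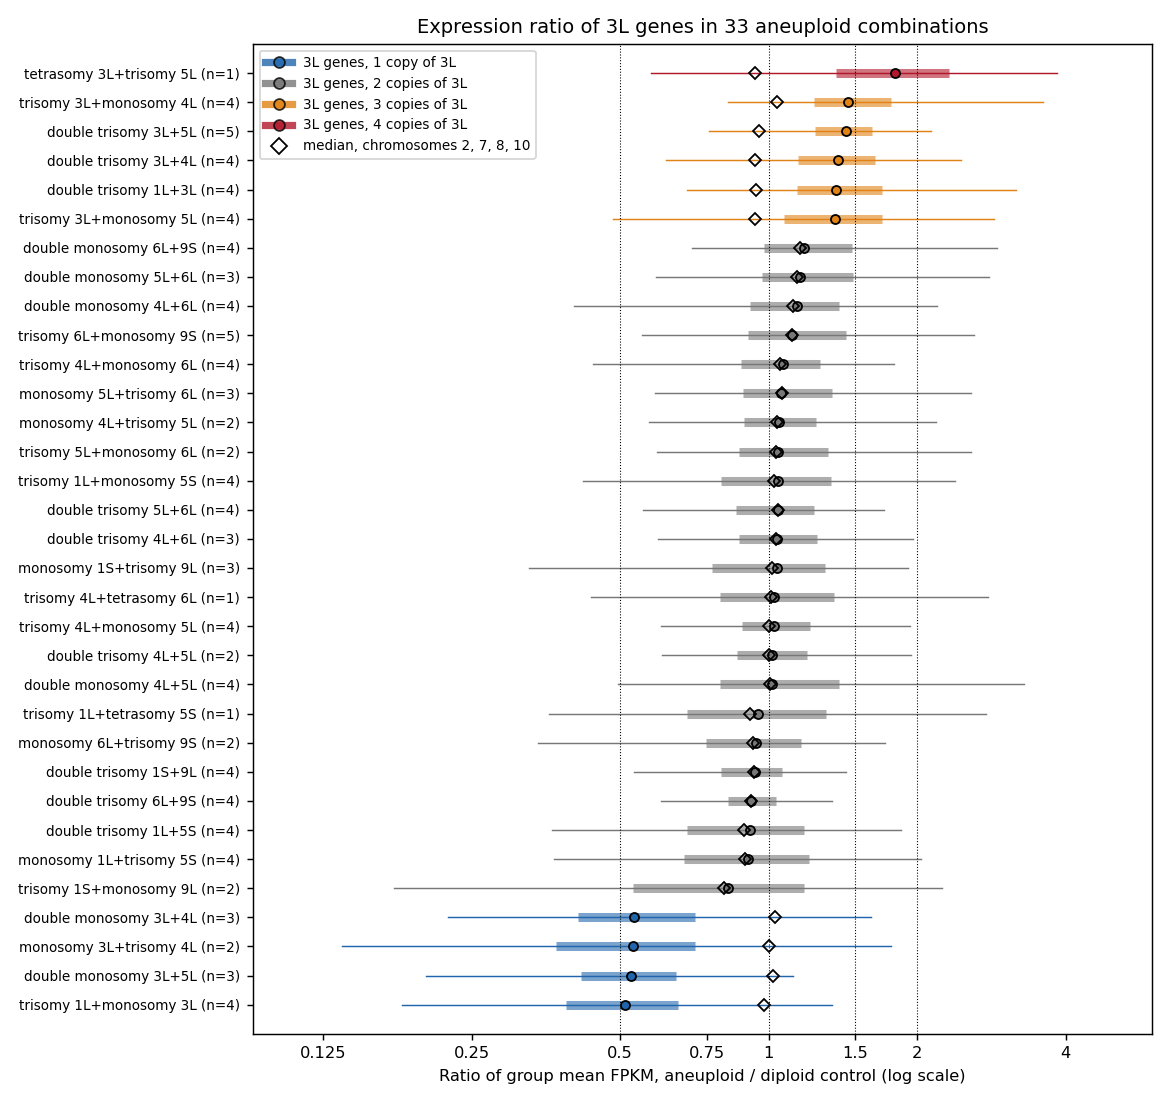
Median ratio of FPKM in each combination to its diploid controls for the 1454 genes of 3L, with bars for the interquartile range over genes and thin lines from the 5th to the 95th percentile, on a log axis and coloured by copies of 3L. Diamonds are the *trans* medians, and n is the number of plants. The 4 combinations with 1 copy lay between 0.511 and 0.534, the 5 with 3 copies between 1.36 and 1.45, the plant with 4 copies at 1.80, and the 23 with 2 copies between 0.827 and 1.18.

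Where 3L was not varied, the median ratio of its genes ranged from 0.827 to 1.18 over the 23 combinations, while the *trans* genes ranged from 0.814 to 1.16. Relative to the *trans* median of the same combination, the 3L median was 0.997 to 1.04 with 2 copies. The same relative value was 0.516 to 0.529 with 1 copy, 1.39 to 1.51 with 3 copies and 1.92 with 4 copies. The *trans* median ratio itself was 0.977 to 1.03 in the 1-copy groups, 0.937 to 1.04 in the 3-copy groups and 0.937 in the plant with 4 copies.

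Single genes were spread widely around these medians. The count of genes past the midpoint between no change and dosage, for example a ratio of 0.75 for 1 copy, is given here with the share of all genes tested that were past it. In the 1-copy groups it was 1206 in trisomy 1L+monosomy 3L (27.9% of all genes tested), 1126 in double monosomy 3L+4L (27.4%), 1129 in monosomy 3L+trisomy 4L (29.9%) and 1227 in double monosomy 3L+5L (27.2%). These were 77.7 to 84.4% of the 3L genes with a ratio. In the 3-copy groups it was 927 in double trisomy 1L+3L (27.6% of all genes tested), 1072 in trisomy 3L+monosomy 4L (28.7%), 948 in double trisomy 3L+4L (19.6%), 876 in trisomy 3L+monosomy 5L (17.8%) and 1076 in double trisomy 3L+5L (16.1%). These were 60.3 to 74.0% of the 3L genes. The plant with 4 copies had 993 (68.3%, against 16.3% of all genes tested). Genes on the other side of a ratio of 1 numbered 103 to 174 with 1 copy, 131 to 306 with 3 copies and 176 with 4 copies.

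The interquartile range of the log2 ratio over the 3L genes was 0.64 to 0.93 with 1 copy, 0.39 to 0.66 with 3 copies and 0.76 with 4 copies. Over the *trans* genes of the same combinations it was 0.61 to 0.92, 0.34 to 0.56 and 0.68. Ratios within 10% of the dosage value were found for 16.1 to 24.8% of the 3L genes with 1 copy and for 23.4 to 40.2% with 3 copies. Of the members, 22 were listed at 0 in at least 1 of the 10 combinations, with 15 of the 45 such values in monosomy 3L+trisomy 4L.

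Responses were also counted over combinations, gene by gene. A ratio of at most 0.75 in all 4 combinations with 1 copy was found for 877 genes (60.3%), against 8.69% of all genes tested. A ratio past the midpoint in all 5 combinations with 3 copies was found for 375 (25.8%), against 2.42%. Both held for 235 genes (16.2%), against 1.26%, and for 0 of the 6694 *trans* genes. A ratio between 0.8 and its reciprocal in all 10 combinations was found for 0 of the 1454 genes. It was found for 3.42% of all genes tested and 305 of the 6694 *trans* genes. Few genes with unvaried copies met this criterion, so it cannot count the compensated genes. Combinations of a pair share their controls, so these counts do not come from independent measurements.

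Ratios between 2 aneuploid combinations do not use the controls. In 4 such contrasts the partner arm had the same number of copies and 3L had 3 copies against 1, a copy ratio of 3, and no plants were shared. The median ratio was 2.68 (2.05 to 3.72) for double trisomy 1L+3L over trisomy 1L+monosomy 3L. It was 2.70 (2.02 to 3.71) with monosomy 4L and 2.64 (1.88 to 3.85) with trisomy 4L. With monosomy 5L it was 2.57 (2.10 to 3.12). Between 90.9 and 96.6% of the 3L genes were higher with 3 copies in each contrast, whereas the *trans* median was 0.972, 1.000, 0.936 and 0.904 in the same order.

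A total of 1243 genes (85.5%) were higher with 3 copies than with 1 in all 4 contrasts, against 15.8% of all genes tested and 702 of the *trans* genes. More than a 2-fold difference in all 4 was found for 704 genes (48.4%), against 4.03% of all genes tested and 24 of the *trans* genes. Only 3 members were higher in 0 of the contrasts. For tetrasomy 3L+trisomy 5L over double trisomy 3L+5L, a copy ratio of 1.33, the median was 1.2495 (1.02 to 1.54), against 0.980 for the *trans* genes. Where 3L had the same number of copies and the partner had 3 against 1, the median was 1.01 for monosomy 3L with 4L, 0.962 for trisomy 3L with 4L and 1.05 for trisomy 3L with 5L, and the *trans* medians were 0.991, 0.898 and 1.02. Across genes, which are not independent replicates, the log2 ratios of the 4 contrasts had a Pearson r between 0.367 and 0.717 over the 3L genes and between 0.155 and 0.593 over the *trans* genes.

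**Figure D2:**
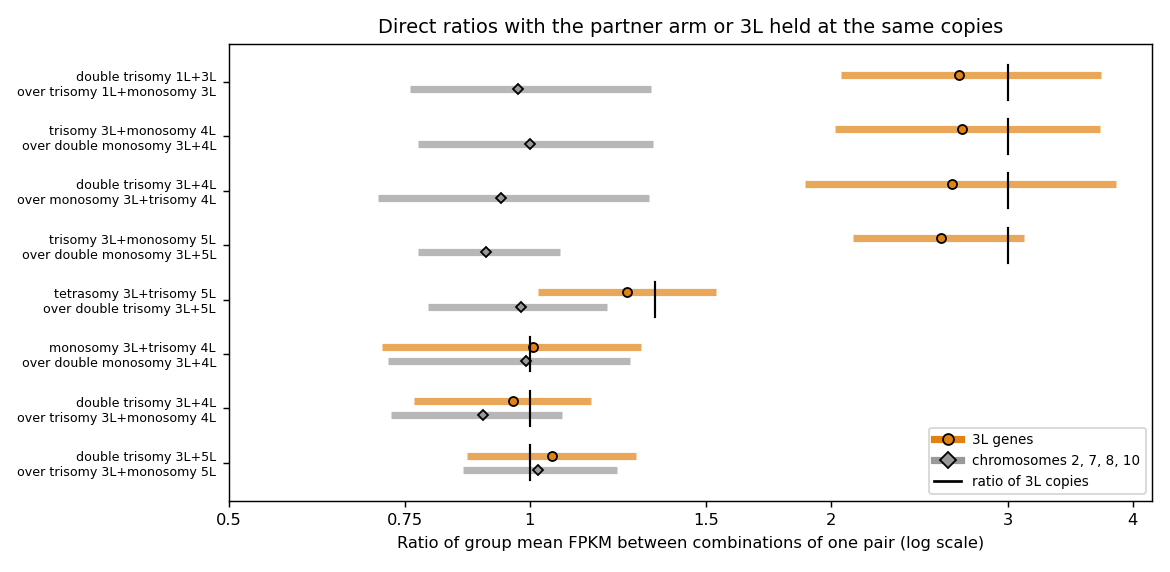
Median (points) and interquartile range over genes (bars) of the FPKM ratio between combinations that share the copies of the partner arm or of 3L, for the genes of 3L and for those of chromosomes 2, 7, 8 and 10, on a log axis. The 4 contrasts of 3 against 1 copies had 3L medians of 2.57 to 2.70, below the copy ratio of 3, and that of 4 against 3 copies had 1.2495, below 1.33.

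To give each gene 1 measure over all groups, a slope on log2 of the copies was fitted with limma to log2(FPKM + 0.1) of the 42 group means, with terms for the pair and for the copies of each other arm. On the uncorrected FPKM scale, a slope of 1 is taken as the dosage effect and 0 as full compensation. The slope was higher than 0 at an adjusted p under 0.05 for 1259 of the 1454 genes (86.6%), against 12.7% of all 18725 genes tested, and lower than 0 for 2, against 14.7%. Among the *trans* genes 453 rose and 1050 fell with the copies of 3L. This balance depended on the scaling: after division of each combination by its median ratio over the *trans* genes, 680 rose and 745 fell. The median slope was 0.88 (interquartile range 0.70 to 1.08), with a median standard error of 0.12, while the *trans* median was -0.04 (-0.19 to 0.14). A slope between 0.5 and 1.5 was found for 1209 genes and one between -0.2 and 0.2 for 64. These p-values measure the spread between group means, and the pseudocount understates the change of low genes.

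Against a slope of 1, 504 genes were significantly lower, against 90.1% of all genes tested, and 129 were higher, against 0.705%. Both tests together divided the genes into classes. The largest comprised 757 genes (52.1%) that rose and did not differ from dosage, with a median slope of 0.98. A further 373 (25.7%) rose by less than dosage, with a median slope of 0.71, and 129 (8.87%) rose by more, with a median of 1.47. Another 129 did not differ from 0 and were below dosage, with a median of 0.10. The remaining 64 differed from neither, and 2 fell. Without the pair 3L+4L, 73 genes were above dosage instead of 129. After division by the median ratio of the unvaried chromosomes, 419 genes were below dosage (89.3% of all genes tested) and 174 above (0.951%). The median slope was then 0.92.

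**Figure D3:**
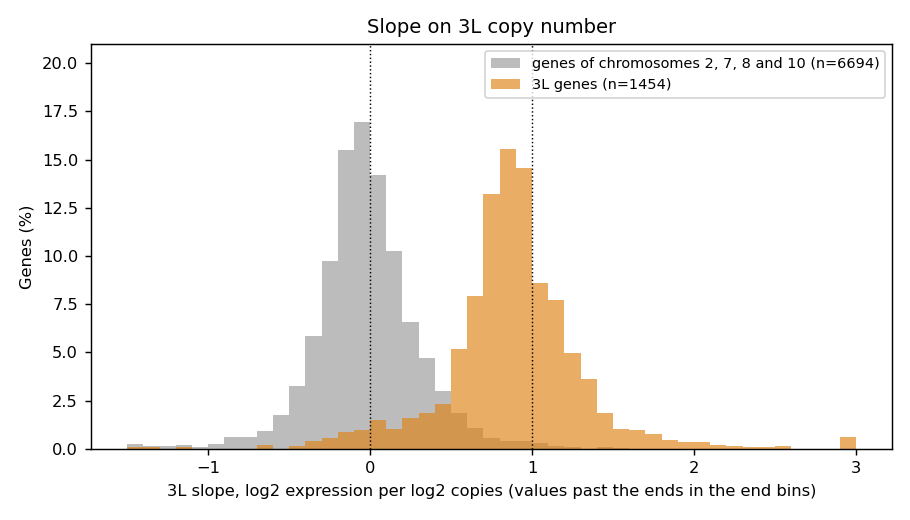
Percentage of genes by slope of log2 FPKM on log2 copies of 3L, for the 1454 genes of 3L and for the genes of chromosomes 2, 7, 8 and 10. The 3L genes centred at 0.88, between full compensation at 0 and the dosage effect at 1, and the *trans* genes at -0.04.

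Loss and gain were next fitted apart. With 1 copy the median log2 effect was -0.93, where dosage would give -1, and 1042 genes were lower (11.3% of all genes tested) and 5 higher (7.76%). For 3 copies the median was 0.48, where dosage would give 0.58, and 337 genes were higher (1.83%) and 10 lower (0.192%). With 4 copies it was 0.84, where dosage would give 1, and 531 were higher (3.46%) and 21 lower (3.67%). The median standard errors were 0.21, 0.20 and 0.34 in the same order, and the 4-copy effect rests on 1 plant. The effects lay in the order of the copies for 1021 of the 1454 genes and for 585 of the 6694 *trans* genes. The count higher with 3 copies fell to 213 without the pair with 1L (1.16% of all genes tested) and to 88 without that with 4L (0.486%). It fell to 51 without the pair with 5L and to 208 without double trisomy 3L+5L. When the fit used only the 13 group means of these pairs, with a residual df of 6, it called 0 of all genes tested higher with 3 copies. Weighting group means by plants left 37 genes higher with 4 copies (0.198% of all genes tested).

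The effects per log2 copy were compared as signed slopes on the copies. The slope of gain was below that of loss for 16 genes at an adjusted p under 0.05 in the limma contrast, against 0.139% of all genes tested. The slope of gain was above that of loss for 0, against 0.00534%, and for 66 at an unadjusted p under 0.05, against 3.88%. For a lower slope of gain the unadjusted count was 138, against 6.49%. The median contrast of gain minus loss was -0.12 over the 3L genes and -0.11 over the *trans* genes. Of the 16 genes, 16 were lower with 1 copy and 15 had a negative 3-copy effect, so most of them did not move in opposite directions. For those 15 the contrast does not say whether loss or gain had the larger effect. Without the pair with 1L, 4L or 5L, the number with a lower slope of gain was 5, 3 or 7.

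The 10 genes that were lower with 3 copies were all lower with 1 copy as well, against 0.112% of all genes tested that were lower in both. Their log2 effects were -2.57 to -0.82 with 1 copy and -1.84 to -0.68 with 3 copies (adjusted p from 1.43e-04 to 0.0254), and 6 of the 10 were also lower with 4 copies. They were expressed at 2.29 to 110 FPKM in the controls. The gene at positions 116454198 to 116457939 had 59.9, 59.5 and 61.8 FPKM in the controls of the pairs with 1L, 4L and 5L. Here and for the genes below, groups follow the order of the midpoint counts. With 1 copy the gene had 27.0, 22.2, 27.1 and 22.6 FPKM, and with 3 copies 21.0, 25.6, 26.6, 22.9 and 30.7 FPKM. The plant with 4 copies had 23.0 FPKM. All 10 combinations were far below the 3 controls, whether the arm was lost or gained, and the groups with 1 and 3 copies overlapped. In the other 6 control groups the gene had 39.7 to 58.4 FPKM, and in the 23 combinations with 2 copies of 3L it had 26.5 to 60.0 FPKM.

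A second gene, at 116508516 to 116508921, had 117, 137 and 124 FPKM in the controls. It had 20.7 to 32.2 FPKM with 1 copy, 34.1 to 57.5 with 3 copies and 58.2 with 4 copies. Here too the 10 combinations did not overlap the 3 controls, although the 1-copy groups were all below those with 3 copies. In the other 6 control groups this gene had 80.7 to 142 FPKM. In the 23 combinations with 2 copies of 3L it had 20.0 to 177 FPKM, a range that spans the levels with 3L varied. Another of the 10 genes starts just before it, at 116507185. The files do not pair these identifiers with names.

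The 10 genes started between 111.19 and 152.0 Mb, in the proximal part of the arm. Irrespective of the test, 18 of the 1454 genes (1.24%) had all 10 combinations below the 3 controls, against 0.673% of all genes tested, and 5 had all 10 above, against 0.278%. Of the 18, 16 were among the 390 members in the first 70 Mb of the segment (4.10%) and 2 among the 1064 beyond (0.188%). In the 40 Mb of chromosome 3 before the segment, whose copies were not varied, 8 of 130 genes had this pattern (6.15%), and farther from it 6 of 488. On the other 9 chromosomes it was 94 of 16652 (0.564%). The division at 70 Mb was chosen after the values were seen and was not tested. The number lower with 3 copies was 6 without the pair 3L+4L and 4 without 3L+5L. With only the 13 group means it was 0, in a fit that called 0 of all genes tested lower with 3 copies. The number was 9 or more in the fits that left out the tetrasomy plant, monosomy 3L+trisomy 4L, double trisomy 3L+5L or the pair 1L+3L.

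The partner arm made no detectable difference to the response. The median slope was 0.89 beside 1L, 0.87 beside 4L and 0.89 beside 5L. Slopes differed by pair for 0 genes by the limma F test (0% of all genes tested), with a lowest adjusted p of 0.854, and for 101 genes at an unadjusted p under 0.05, against 5.78%. With slopes estimated from 2 to 4 combinations each, small differences for single genes could not have been seen.

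The 3L genes also responded in *trans* to other arms. With more copies of 6L, 122 genes rose (14.5% of all genes tested) and 278 fell (17.3%), together 27.5% of the 3L genes and 27.7% of the *trans* genes. With more copies of 9S, 16 rose (2.85%) and 250 fell (16.3%), together 18.3 and 17.5%. For 5L, 60 rose (8.3%) and 119 fell (7.54%), 12.3% of either set. For 4L it was 37 (6.65%) and 59 (5.23%), together 6.60% of the 3L genes and 8.46% of the *trans* genes. For 9L, 53 rose (6.12%) and 18 fell (1.14%), together 4.88 and 4.05%. Without trisomy 1S+monosomy 9L, 0 did so, but every combination of 9L left in that fit had 3 copies. With no loss of 9L to compare, that fit cannot say what the omitted combination contributed. Leaf mid-rib was noted for the plants of trisomy 1S+monosomy 9L, and its effect was not tested. The arm 1L had 22 (7.42%) and 8 (0.961%), 5S had 2 (4.41%) and 23 (2.06%), and 1S had 2 (3.79%) and 12 (0.94%). Together these were 2.06% of the 3L genes and 2.76% of the *trans* genes for 1L, 1.72 and 2.76% for 5S, and 0.963 and 1.21% for 1S. The differences between the 3L and *trans* genes were not tested. Background shares here include the genes of the varied arm itself.

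The direction of these *trans* responses depended on the scaling. After division of each group mean by the median ratio of the unvaried chromosomes, 61 rose and 93 fell with 9S, 164 and 208 with 6L, 94 and 103 with 5L, and 70 and 39 with 4L. For 9L it became 34 and 34, for 5S 3 and 7, and for 1S 5 and 5, while 1L kept 22 and 8. The median coefficients of the 3L genes, from -0.17 for 9S to 0.11 for 9L, were close to those of the *trans* genes, -0.17 and 0.13.

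The share of all FPKM taken by the 3L genes does not depend on a scaling between groups. It was 6.99 to 7.58% in the 9 controls, with a median of 7.43%. With 1 copy it was 3.73, 3.79, 3.94 and 3.79%, in the order in which the midpoint counts were given. In the 3-copy groups it was 9.91, 10.4, 10.5, 9.96 and 10.3%, and in the plant with 4 copies it was 13.7%. The groups with 1, 2, 3 and 4 copies did not overlap, since the 23 unvaried combinations held between 6.67 and 8.12%. Relative to its controls the share was 0.499 to 0.529 with 1 copy, 1.35 to 1.44 with 3 and 1.90 with 4. The share was 2.70-fold higher with 3 copies than with 1 (two-sided exact permutation within pairs, p = 0.0278, the smallest that 36 arrangements allow). The 10 most abundant genes of the arm took 1.72 to 2.36% of FPKM in the controls.

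The response was similar along the arm. In 16 windows of 10 Mb from the start of the segment, with 23 to 172 genes each, the median slope was 0.83 to 0.95. The share of genes that rose was 73.3 to 94.3%, and the lowest share was in the window of 30 to 40 Mb. The share below dosage was 25.9 to 50%. The 4 windows of 10 Mb before the segment had medians of -0.06 to 0.04. In these flanking windows the median effects were below 0 at every copy number, from -0.17 to -0.05 with 1 copy, -0.15 to -0.05 with 3 and -0.27 to -0.07 with 4. The start of the segment was fixed beforehand, with earlier results of these data known, so a step there is not an independent result. The first 10 genes inside had slopes of 0.63 to 1.12. The last 10 before the start had slopes of -0.21 to 0.37. The nearest gene was 0.116 Mb from the start on the inside and 0.123 Mb on the other side. Of the 618 genes of chromosome 3 before the segment, 45 rose (7.28%) and 85 fell (13.8%).

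**Figure D4:**
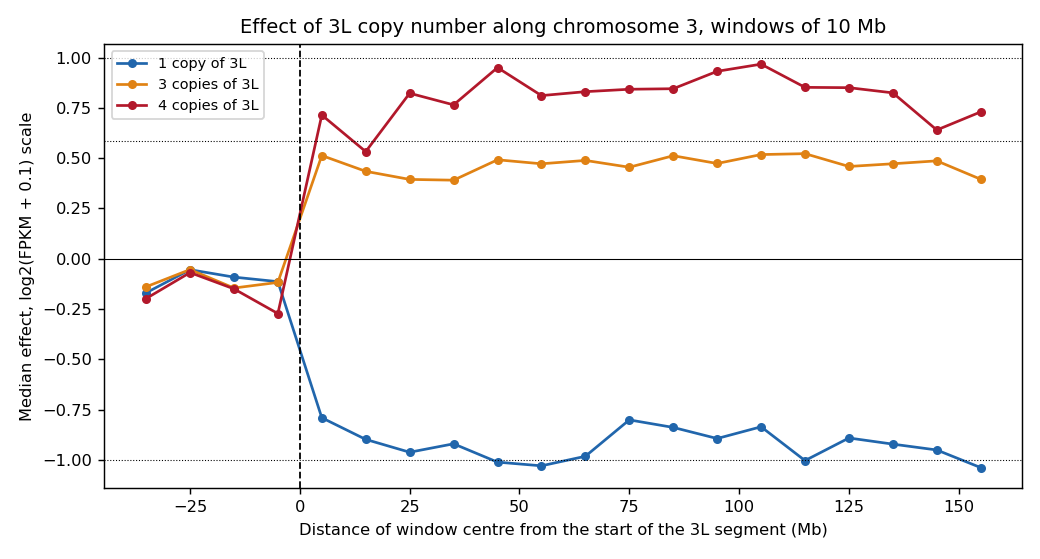
Median effect of 1, 3 and 4 copies of 3L on the log2(FPKM + 0.1) scale by window of 10 Mb, against the distance of the window from the start of the segment in Mb; dotted lines mark the dosage values and the dashed line the start. Inside the segment the 1-copy medians lay between -1.04 and -0.79, the 3-copy medians between 0.39 and 0.52 and the 4-copy medians between 0.53 and 0.97, and in the 4 windows before it all medians were between -0.27 and -0.05.

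The median slope was lowest in the genes of lowest level and highest in those of highest level. The genes were split into 4 groups of about equal size by control level. From the lowest to the highest, the median slope was 0.82, 0.88, 0.87 and 0.94. The share that rose was 70.6, 87.9, 93.4 and 94.5%. The median effect of 1 copy went from -0.80 in the lowest group to -1.03 in the highest. That of 3 copies ran the other way, from 0.51 to 0.47. The pseudocount lowers the slopes most in the lowest group. With 4 such groups by locus length, from the shortest, the median slope was 0.93, 0.87, 0.88 and 0.87. The share below dosage was 23.4, 34.2, 37.7 and 43.4%. The median standard error of the slope fell from 0.20 to 0.09 over the length groups, and a smaller error lets smaller departures from dosage pass the test. With 4 groups by the spread over the 9 controls, the median slope was 0.87, 0.87, 0.90 and 0.92. The share that rose went from 98.9% in the least variable group to 64.8% in the most variable, and the share below dosage from 51.9 to 22.5%. The median standard error of the slope rose from 0.07 to 0.25 over the same groups. The 50 members closest above the limit of 1 FPKM had median ratios of 0.523 with 1 copy and 1.48 with 3, and the 50 genes of the segment closest below it had 0.528 and 1.37.

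Genes in the last 50 Mb of the arm had a median slope of 0.88 (0.70 to 1.099) on copies of 3L. On copies of their own arms, the genes in the last 50 Mb of 1L, 4L and 5L had medians of 0.98 (0.82 to 1.15), 0.96 (0.84 to 1.07) and 0.94 (0.78 to 1.07). The difference was not tested.

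The steepest slopes that passed the test among genes with at least 10 FPKM belonged to genes that also varied widely where 3L did not. Zm00004b017514, at positions 139447235 to 139449860, had a slope of 3.92 (SE 0.88, adjusted p = 0.00141 by limma). Its level was 14.1, 31.7 and 62.7 FPKM in the controls of the pairs with 1L, 4L and 5L. It was 0.314 FPKM in trisomy 1L+monosomy 3L, 0.0540 and 0.140 FPKM in double monosomy 3L+4L and monosomy 3L+trisomy 4L, and 1.38 FPKM in double monosomy 3L+5L. All 4 were below the controls. With 3 copies it was 96.1 FPKM in double trisomy 1L+3L, 581 in trisomy 3L+monosomy 4L, 11.0 in double trisomy 3L+4L, 9.17 in trisomy 3L+monosomy 5L and 101 in double trisomy 3L+5L, and with 4 copies it was 103 FPKM. These groups overlapped the controls, and over the 23 unvaried combinations the gene ranged from 0.0930 to 485 FPKM. The slope lost significance without the pair 3L+4L, at 2.63.

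Zm00004b019125, at 209012538 to 209012865, had a slope of 3.16 (SE 0.86, adjusted p = 0.00743 by limma). Its controls had 6.57, 39.4 and 179 FPKM. The 1-copy groups had 5.83, 0.483, 1.195 and 1.504 FPKM, and the 3-copy groups 205, 134, 63.0, 3.16 and 151 FPKM. The plant with 4 copies had 1422 FPKM, above every other group, including the 9 controls with up to 683 FPKM. The unvaried combinations ranged from 0.332 to 384 FPKM, and the call was lost without the pair 3L+4L, at a slope of 2.29.

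At the other end of the same ranking, the 2 lowest slopes that passed the test among such genes were both 0.41. The gene at 198489939 to 198496446 had 26.0, 24.5 and 26.4 FPKM in the controls and 18.9, 25.2, 25.9 and 17.2 FPKM with 1 copy. With 3 copies it had 24.6, 29.9, 36.1, 35.7 and 33.6 FPKM, and with 4 copies 48.7 FPKM. Its slope was below 1 (adjusted p = 6.48e-06 by limma). The gene at 202297292 to 202307118 had 19.3, 13.5, 16.3 and 10.1 FPKM with 1 copy, close to the 16.6, 13.9 and 9.98 FPKM of its controls. With 3 copies it had 26.9, 25.3, 22.4, 15.8 and 16.6 FPKM, above the controls of the same pair in each case. Both calls were lost without the pair 3L+5L. That of the first gene was also lost with only the 13 group means of the 3L pairs, and that of the second without 3L+4L.

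The 2 members that fell with more copies were chosen after their values were seen. Zm00004b018931, at 202484913 to 202487002, had a slope of -1.37 (SE 0.42, adjusted p = 0.0170 by limma). It had 0.790, 0.442 and 2.50 FPKM in the controls and 7.24, 12.8, 13.8 and 6.15 FPKM with 1 copy. All 4 groups with 1 copy were above the controls. With 3 copies it had 1.21, 2.56, 0.188, 7.07 and 3.30 FPKM and with 4 copies 4.55 FPKM, which overlapped both. Without the pair 3L+4L its slope was -0.43, without 1L+3L -1.28 and without monosomy 3L+trisomy 4L -0.87, and the call was lost in each. It was also lost with only the 13 group means of the 3L pairs, at -1.52.

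Zm00004b019976, at 238177016 to 238181144, had a slope of -0.62 (SE 0.19, adjusted p = 0.0179 by limma). It had 11.3, 13.3 and 4.47 FPKM in the controls and 8.40, 9.74, 11.5 and 8.42 FPKM with 1 copy. With 3 copies it had 9.54, 2.88, 6.84, 4.31 and 4.79 FPKM, and the plant with 4 copies had 1.58 FPKM, the lowest of the 13 groups. The call was lost without that plant, at -0.48, and without the pair 3L+5L or 3L+4L, at -0.43 and -0.55. It was also lost with only the 13 group means of the 3L pairs, at -0.54.

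**Figure D5:**
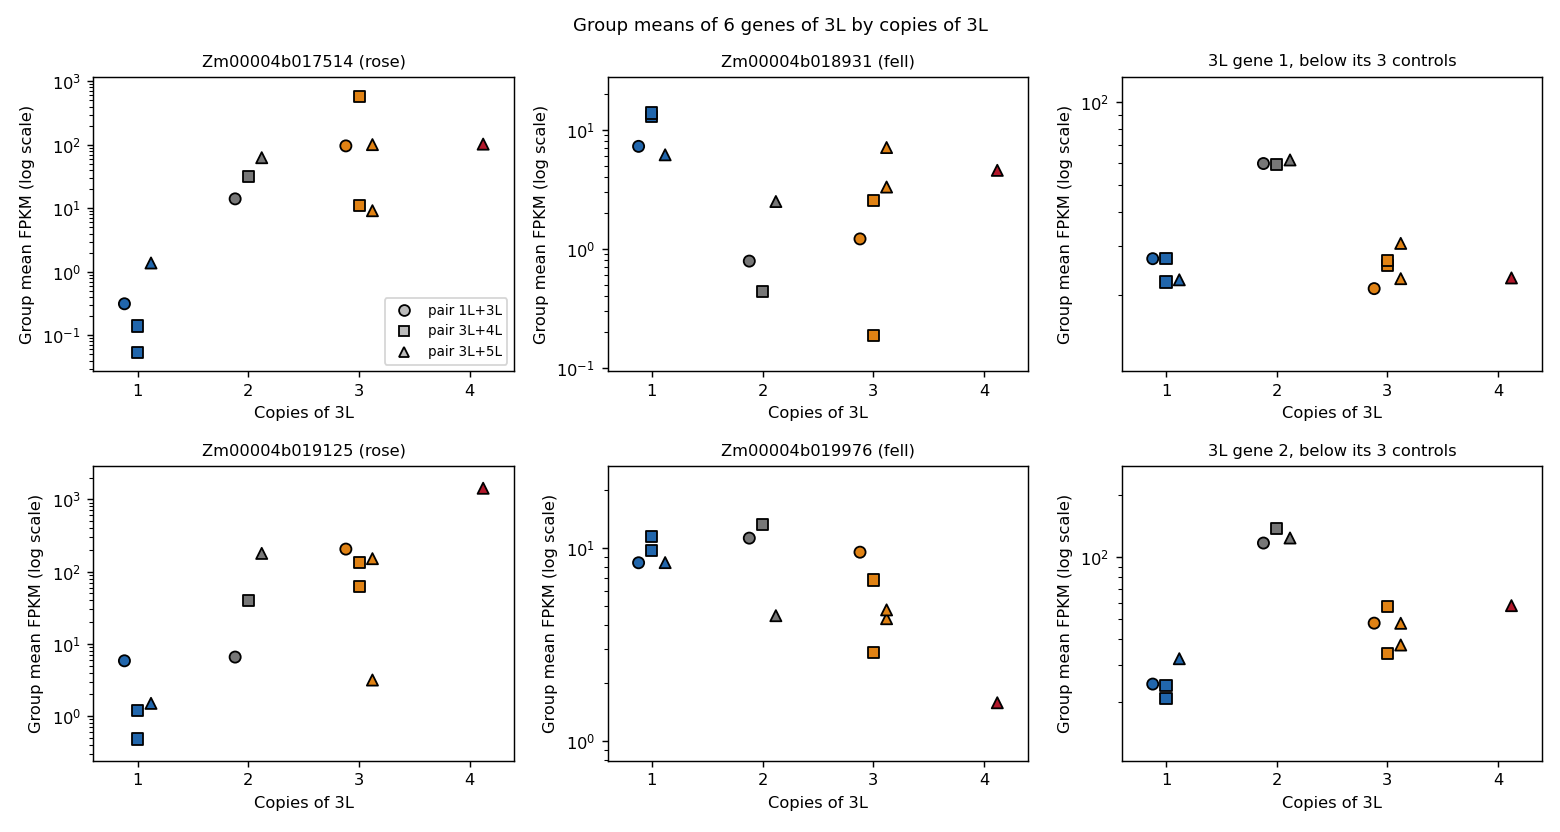
Group mean FPKM by copies of 3L, on log axes, for 6 genes of 3L, with a symbol for each pair of arms and 1 point per group. The 2 genes at left had the highest slopes among genes that passed the test with at least 10 FPKM, the 2 in the middle fell, and the 2 at right (those at 116454198 and 116508516) lay below their 3 controls in all 10 combinations.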

How the data were processed

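Leaf RNA of aneuploid and diploid W22 maize was sequenced from stranded, rRNA-depleted libraries. The authors used fastp for trimming, discarded reads of organelles, and mapped what remained with STAR against W22 and the B chromosome. Cuffdiff then set every combination against its pair's controls. Genome and program versions are not given in the sources used here, nor is the library scaling. The deposited values are group means in FPKM for each gene. The other 5 columns of each of the 9 tables, with the authors' fold changes, test statistics, p-values, q-values and calls, were not used. No counts or values per plant were analysed, so no interval for counting error was computed.

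Samples were grouped from their labels, and 1 plant of 1S+9L whose labels disagree was left unassigned. The members and lists were chosen with earlier results of these data known. Genes of chromosomes 1 to 10 with a control mean of at least 1 FPKM were tested (18725), without 2 genes whose values Cuffdiff had set to 0 for too many reads. One member value of the tetrasomy plant marked as a failed test was kept. Ratios used deposited means with no pseudocount, and genes at 0 in both groups were left out of a ratio. The limma fit (lmFit and eBayes with trend, residual df 24) used log2(FPKM + 0.1) of 42 group means, pair, and log2(copies/2) of each arm, with Benjamini-Hochberg adjustment over all genes tested. Tests were two-sided with a threshold of 0.05. R 4.3.3, limma 3.58.1, Python 3.11.15, numpy 2.4.6 and pandas 2.3.3 were used. On simulated data for the slope on 3L over these genes, 44 of 50 genes with slope 1 and 20 of 50 with 0.5 were recovered. For slopes of -0.5 and -1 it was 26 of 50 and 35 of 50, with 8 false calls among 18525. The simulated noise was independent between genes and groups, so the false calls do not measure the error rate in the real data.

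The rule for genes described singly took the 2 of highest and 2 of lowest slope among members past the threshold with at least 10 FPKM, the latter given by position. The 2 members that fell, both under 10 FPKM, and 2 of those lower with 1 and 3 copies are outside the rule and were chosen after their values were seen. The reference is of the line B73 and matched 0 identifiers, so no names, functions or sequences are given. Alternatives were pseudocounts of 0.01 and 1, filters of 10 FPKM and none, scaling by the unvaried chromosomes, weights by plants, the 13 group means of the 3L pairs, and omission of each of these pairs or of the tetrasomy plant. Omission of monosomy 3L+trisomy 4L, of trisomy 1S+monosomy 9L or of double trisomy 3L+5L, and the direct ratios with their alternatives, were added after the data were seen.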

Additional observations from a re-analysis of the deposited data

Results flagged for a closer look

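Among 22 sets of group means examined for a value far from the others of its set, 1 stood apart, and chance alone would single out about 1 in 20. It was the level of Zm00004b017514 with 3 copies of 3L, which was 581 FPKM in trisomy 3L+monosomy 4L and between 9.17 and 101 FPKM in the other 4 combinations. The gene reached 485 FPKM in 1 of the combinations in which 3L was not varied.

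Loss and gain of 3L differed in their signed slope per log2 copy for 16 genes by the limma contrast, all with a lower slope of gain. Their log2 effects were -4.16 to -0.94 with 1 copy, with a median of -1.28, and -1.84 to 0.12 with 3 copies, with a median of -0.94. Of these genes, 9 are among the 10 that were lower with both 1 and 3 copies. Their control means were 2.29 to 110 FPKM, and 0 of them were listed at 0 in any of the 10 combinations. No cause was tested.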

How the results depend on the processing

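No paired analysis was possible because the tables hold only group means and their columns carry no replicate numbers, and for the same reason no single plant of a larger group could be left out. Compared with an alternative, a main value or count stayed within its limits in 132 of 173 cases. The limits differed by kind of result. Counts had a fixed fold limit, and the median slope had the median standard error of a single gene (0.12). The 132 include 13 counts of slopes by partner arm that were 0 in both fits. A filter also moves a count by changing the number of genes. The tally therefore does not measure how firm a result is. The slopes of the 6 genes described kept their direction and their call in 68 of 82 cases. None of these slopes or median ratios changed direction, but scaling by the unvaried chromosomes turned the balance of the calls for 4L from 37 up and 59 down to 70 and 39, and left that for 9L at 34 and 34. A filter of 10 FPKM, which leaves 713 of the genes, gave 672 genes that rose with the copies, 241 below and 65 above dosage. It gave 615 lower with 1 copy, 6 lower with 3 copies and 327 higher with 4 copies. It left 10 with a lower slope of gain than of loss and 578 calls for the other 8 arms (1081 in the main fit). The median ratio with 1 copy was then 0.508. With no filter on the level, the fit held 2682 genes of the segment among 34707 genes. Of the 2682, 1486 were below dosage, against 92.0% of all 34707 genes. Slopes differed by partner arm for 25 of them, against 1.21%. The median slope was 0.65, and the median ratio was 0.541 with 1 copy and 1.76 with 4. The median direct ratio of 3 to 1 copies was 2.59, against 2.66. A pseudocount of 1 FPKM gave 790 genes below dosage (94.1% of all genes tested), 68 above (0.368%) and a median slope of 0.76.

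With only the 13 group means of the 3L pairs (residual df 6), 456 genes were lower with 1 copy (2.87% of all genes tested). In that fit 0 were higher with 3 copies, 0 lower with 3, 0 higher with 4 and 0 had a lower slope of gain than of loss. For each of these 0 counts the share of all genes tested was also 0%. It made 20 calls for the arms that could be estimated (1L, 4L and 5L). Without the pair 1L+3L, 213 genes were higher with 3 copies (1.16% of all genes tested) and 5 had a lower slope of gain than of loss (0.0320%). Without 3L+4L these were 88 (0.486%) and 3 (0.0160%), with 6 genes lower with 3 copies (0.0587%) and 73 above dosage (0.390%). Without 3L+5L they were 51 and 7, with 4 lower with 3 copies. Without double trisomy 3L+5L, 208 were higher with 3 copies. Weights by plants left 37 genes higher with 4 copies (0.198% of all genes tested). The log2 difference in the 3L share between 3 and 1 copies (1.43) was 1.44 without 1L+3L (p = 0.0556), 1.42 without 3L+4L (p = 0.167) and 1.43 without 3L+5L (p = 0.167), each the smallest p the exact permutation then allows. After scaling by the unvaried chromosomes, the median ratio was 1.45 with 3 copies and 1.92 with 4, and the direct ratio was 2.79. Of the 1261 genes called in either direction for the slope, 1149 to 1261 were also called in the other fits over the same genes. The number of genes that fell with more copies ranged from 0 to 11. Levels near 1 FPKM, a single plant with 4 copies and 13 group means limit these values.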
